A study of Arabidopsis thaliana with 20 samples.

Results

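Under ozone, the libraries labelled wrky25 wrky33, a double mutant of WRKY transcription factor genes, were set against those of the wild type Col-0 (Columbia) across all genes. The members were taken by sample title, 3 double-mutant ozone libraries (replicates 1 to 3) and 4 Col-0 ozone libraries (replicates 1 to 4), which is 7 of the 20 libraries of the series. The plants were Arabidopsis thaliana, 3 weeks old, and both groups had received 350 ppb ozone for 2 h. Each library came from RNA of 5 pooled whole rosettes and was read as counts per gene. The 4 Col-0 and 3 wrky25 wrky33 control libraries, without ozone, and the 6 libraries of the single mutant wrky75 served for comparison. The labels name genotypes but not alleles, positions of the lesions or the accession the mutants were made in, and no line in which WRKY25 or WRKY33 had been restored was among the labels. The protocol in the labels speaks of 3 biological replicates, whereas Col-0 has 4 libraries per treatment.

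Ozone enters leaves through the stomata and breaks down in the apoplast, the space outside the plasma membrane, to reactive oxygen species that set off responses that overlap with those to pathogens. WRKY33 is a transcription factor that MAP kinases phosphorylate after attack by fungi and that activates genes for camalexin, the tryptophan-derived antifungal compound of Arabidopsis, and for the first step of ethylene synthesis. WRKY25 is its close relative, described in defence and in tolerance of heat and salt. WRKY proteins bind the W-box, a short DNA element with the core TTGAC.

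Across 19954 genes tested, 1064 (5.33%) differed between the double mutant and Col-0 under ozone at an adjusted p below 0.05 (edgeR quasi-likelihood F-test with Benjamini-Hochberg adjustment over all genes tested). Most of them were lower in the double mutant: 753 genes (3.77%) were lower and 311 (1.56%) higher. The lower genes included those for tryptophan synthesis, for camalexin, for ethylene synthesis, for elicitor peptides and for several glutathione S-transferases. The changes among lower genes were also larger, with 313 at least 2-fold and 110 at least 4-fold lower, against 79 and 12 higher. The median log2 difference (double mutant minus Col-0, as everywhere in this section) was -0.88 among the lower, 0.67 among the higher and -0.002 among all genes. In 735 of the 753 lower genes and 303 of the 311 higher ones, the libraries of the groups did not overlap; over all genes tested 2633 (13.2%) had no overlap.

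Libraries of both genotypes with the same replicate number can be paired. A fit of all 20 libraries that took the number as a block called 2394 genes (12.0%). Of these, 1084 (5.43%) were higher and 1310 (6.57%) lower. The block called 1063 of the 1064 genes, which were 44.4% of its own calls. In each of the 3 same-numbered pairs, all 753 lower genes were lower and all 311 higher genes were higher in the double mutant; over all genes tested, 4655 (23.3%) were lower and 5214 (26.1%) higher in all 3 pairs. The share of calls that were higher depended on the scaling: it was 29.2% with TMM factors, 36.0% with upper-quartile factors and 48.1% with total counts, which moved the median of all genes by less than 0.1 on the log2 scale, to 0.082. Omitting 1 library at a time left 583 to 1188 genes called.

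The 7 ozone libraries held 20595572 to 20771667 counts each, and 22488 to 22703 genes had a count. On the first principal component of these libraries, with 37.1% of the variance, the mutant-labelled libraries lay at 35.0, 28.1 and 24.6 and all Col-0 libraries below 0, replicates 1 and 4 at -2.11 and -4.76 and replicates 2 and 3 at -40.1 and -40.8. On the second, with 27.3%, Col-0 replicates 1 and 4 lay at -34.8 and -38.9 and replicates 2 and 3 at 12.5 and 19.7. The mutant-labelled libraries were also divided by replicate number on the second component, with replicate 1 at -4.30 and replicates 2 and 3 at 20 and 25.8. Without Col-0 ozone replicate 4, which has no partner, 1171 genes (5.87%) were called, 448 higher (2.25%) and 723 lower (3.63%), and 901 of them were among the 1064 (84.7% of the 1064 and 76.9% of the 1171). Of 16 markers of flowers, seeds and roots, 14 were below 1 CPM in all 7 libraries and 5 at 0, and their summed level was 23.8 to 42.3 CPM in Col-0 and 30.5 to 39.8 CPM in the double mutant. The 10 leaf markers summed to 17578 to 32699 CPM and 21445 to 29421 CPM, and 0 of them passed the test. In whole rosettes, fewer cells of a type and less RNA per cell cannot be told apart.

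**Figure D1:**
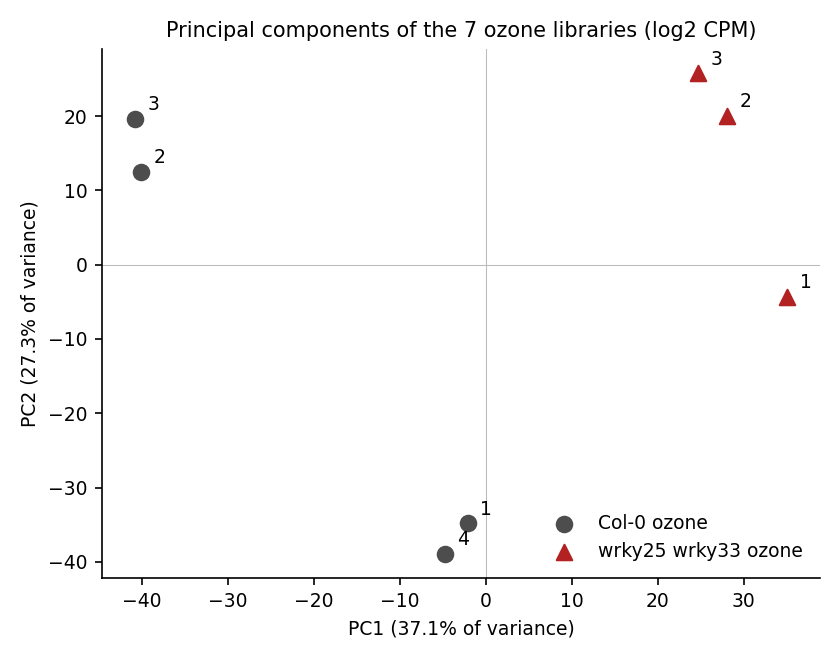
Positions of the 7 ozone libraries on the first and second principal components of log2 counts-per-million, in arbitrary units, labelled by replicate number. The 3 mutant-labelled libraries lie between 24.6 and 35.0 on the first component and the 4 Col-0 libraries between -40.8 and -2.11, with Col-0 replicates 1 and 4 apart from 2 and 3 on the second, and mutant-labelled replicate 1 below replicates 2 and 3 there.

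The mutated genes were read first, in counts-per-million (CPM) scaled with TMM factors. WRKY25 (AT2G30250, chromosome 2, 12903208 to 12905338, minus strand) was at 112, 128, 104 and 144 CPM in Col-0 and 176, 223 and 180.4 CPM in the double mutant. Every mutant-labelled library lay above every Col-0 library, with a log2 difference of 0.66 ± 0.24 (SE; adjusted p = 0.139, edgeR); the block gave 0.72 (adjusted p = 0.00319, edgeR), and over the alternatives the adjusted p ran from 0.000671 to 0.416. Without ozone the mutant-labelled libraries had 3.58, 5.55 and 3.14 CPM of WRKY25 and Col-0 8.38, 16.1, 12.6 and 12.9 CPM and differed by -1.61 ± 0.28 (adjusted p = 0.0529) on the log2 scale in edgeR, and the difference between the comparisons with and without ozone was 2.27 ± 0.36 (SE; adjusted p = 0.00454, edgeR). WRKY33 (AT2G38470, chromosome 2, 16108235 to 16110766, plus strand) was at 589.6, 437, 320.5 and 729.9 CPM in Col-0 and 426, 344 and 224 CPM in the double mutant. The groups overlapped, with a log2 difference of -0.65 ± 0.39 (SE; adjusted p = 0.496, edgeR) and adjusted p-values of 0.00812 to 0.842 over the alternatives. Transcripts of both genes were thus counted in every library labelled wrky25 wrky33, and the count per gene says nothing about where in the transcript the reads fell or whether protein was made. Directions given for the double mutant rest on the labels.

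Both mutated genes had a neighbour that changed. AT2G38480, a protein of unknown function on the minus strand that overlaps the 3′ end of WRKY33 by 26 bases, was at 2.49, 2.54, 2.06 and 3.29 CPM in Col-0 and 12.7, 17.1 and 13 CPM in the double mutant. All mutant-labelled libraries were higher, and it had a log2 difference of 2.46 ± 0.15 (SE; adjusted p = 1.43e-08, edgeR) under ozone and 0.94 ± 0.14 (adjusted p = 0.0116, edgeR) without it. ATCHX13, a cation/H+ exchanger whose gene begins 392 bases beyond the 3′ end of WRKY25 on the same strand, had 2 counts in the 4 Col-0 ozone libraries together and 176 in the 3 mutant-labelled ones, a ratio of 111 (exact 95% interval 30.3 to 924, counting error only). Without ozone it had 0 counts in Col-0 and 842 in the double mutant; with Col-0 set at a floor of 3 counts in all, it was at least 390-fold higher. Of 20 genes tested within 5 places of WRKY25 or WRKY33 these were the 2 called, and the other log2 differences ran from -0.63 to 1.62. The library kit does not mark strand, so reads in the overlap of AT2G38480 and WRKY33 cannot be told apart. Within 1 Mb of WRKY25, 24 of 384 genes were called (6.25%), and within 1 Mb of WRKY33, 28 of 435 (6.44%), beside 4.81% to 5.84% on the 5 chromosomes.

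**Figure D2:**
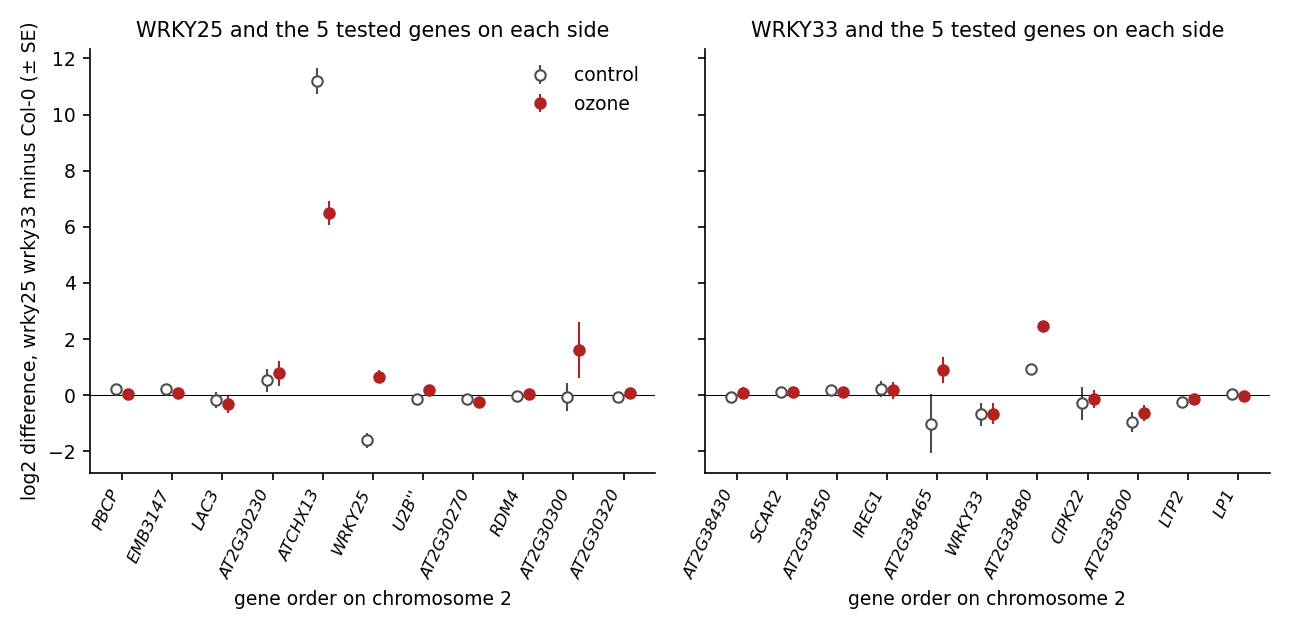
Log2 difference (double mutant minus Col-0, with bars of 1 SE) of WRKY25, WRKY33 and 5 tested genes on each side, with ozone and without it, by place in gene order. ATCHX13 beside WRKY25 and AT2G38480 beside WRKY33 stand above the rest in both comparisons; the control value of ATCHX13 depends on the prior count of the fit, since Col-0 had 0 counts.

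Camalexin synthesis had some of the largest differences. CYP71A13, the cytochrome P450 that makes indole-3-acetonitrile from indole-3-acetaldoxime, was at 596, 764, 1009.5 and 244 CPM in Col-0 and 23.4, 11.1 and 33.8 CPM in the double mutant. Every mutant-labelled library was below the lowest Col-0 library, 28.7-fold lower in the fit, with a log2 difference of -4.84 ± 0.65 (SE; adjusted p = 0.000143, edgeR). CYP71A12, its neighbour and close copy with the same activity, was at 302, 452, 423 and 311 CPM in Col-0 and 258, 291 and 273 CPM in the double mutant. The groups did not overlap but the gene did not pass, with a log2 difference of -0.44 ± 0.19 (SE; adjusted p = 0.237, edgeR); the block called it (adjusted p = 0.0171, edgeR), and the alternatives gave 0.0122 to 0.526. PAD3, the P450 of the last step to camalexin, was at 1539.9, 1856, 2112 and 1580.5 CPM in Col-0 and 399, 271 and 415 CPM in the double mutant. It was lower in all mutant-labelled libraries, 4.90-fold lower in the fit, with a log2 difference of -2.29 ± 0.42 (SE; adjusted p = 0.00227, edgeR). CYP82C2, which hydroxylates indole carbonyl nitrile, was lower as well, 1.36 ± 0.77 CPM (SD, n = 4) in Col-0 and 0.168 ± 0.136 CPM (SD, n = 3) in the double mutant, with a log2 difference of -2.97 ± 0.69 (SE; adjusted p = 0.0174, edgeR); its call was lost on omission of any 1 of Col-0 replicate 2 and mutant-labelled replicates 1 and 2 (adjusted p up to 0.1, edgeR). AT1G26380 (FOX1), the oxidase before CYP82C2 in that branch, was lower, 446 ± 134 CPM (SD, n = 4) in Col-0 and 80.7 ± 36.4 CPM (SD, n = 3) in the double mutant, with a log2 difference of -2.47 ± 0.39 (SE; adjusted p = 0.000571, edgeR).

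Transcripts of enzymes at several steps of tryptophan synthesis were lower. ASA1, the catalytic subunit of anthranilate synthase, stood at 489, 680.3, 718 and 459.7 CPM in Col-0 and 178, 167 and 194 CPM in the double mutant. The groups did not overlap, with a log2 difference of -1.71 ± 0.20 (SE; adjusted p = 3.33e-05, edgeR), and the difference without ozone was smaller, the 2 comparisons being apart by -1.76 ± 0.27 (SE; adjusted p = 0.00314, edgeR). ASB1, the other subunit, had a log2 difference of -1.17 ± 0.15, the indole-3-glycerol phosphate synthase AT2G04400 -0.88 ± 0.21, TSA1 (tryptophan synthase alpha) -1.29 ± 0.21 and TSB1 (its beta subunit) -0.70 ± 0.13, with adjusted p-values of 8.86e-05, 0.0176, 0.000695 and 0.00204 (edgeR). The MYB factor MYB122, an activator of indole glucosinolate genes, was lower at a log2 difference of -1.81 ± 0.21 (adjusted p = 5.13e-05, edgeR). CYP82C4, a P450 of coumarin synthesis that stands in the list beside CYP82C2, was lower at a log2 difference of -3.50 ± 0.50 at levels of about 1 CPM and less. In the list of 28 genes for tryptophan, camalexin and indole glucosinolates, 11 (39.3%) were lower, 0 higher and 17 not called, with a median of -0.66. The median of all genes was -0.002, and 24 of the 28 had a value below 0. The summed level of the list was 8142 to 10137 CPM in Col-0 and 4323 to 5545 CPM in the double mutant. Of members without a call, MYB51 had a log2 difference of -0.84 ± 0.30 (SE; adjusted p = 0.145, edgeR) and IGMT1 a log2 difference of -1.18 ± 0.42 (SE; adjusted p = 0.138, edgeR). With the block IGMT1 passed (adjusted p = 0.0241 in edgeR; alternatives spanned 0.0241 to 0.467), and the list had 14 lower genes and 0 higher. Over all genes tested the block called 6.57% lower and 5.43% higher, and its count in every list stands beside these shares. For AT2G04400, its call was lost on omission of any 1 of Col-0 replicates 2 and 3 and mutant-labelled replicates 1 and 2 (adjusted p up to 0.115, edgeR).

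Of 13 genes named in the literature as direct WRKY33 targets, 7 (53.8%) were lower under ozone, 0 higher, and the median was -1.14. Beside CYP71A13, PAD3, CYP82C2, ACS2, ACS6 and JAZ5 these included PROPEP3, the precursor of an elicitor peptide, at 23.3, 15.6, 10.6 and 24.6 CPM in Col-0 and 3.98, 3.37 and 1.98 CPM in the double mutant. PROPEP3 was lower in every mutant-labelled library, with a log2 difference of -2.57 ± 0.35 (SE; adjusted p = 0.000165, edgeR). CYP71A12, MYB51, JAZ1, NCED3, NCED5 and AtATG18a were not called, with log2 differences of -0.44, -0.84, -0.71, 0.49, -0.45 and -0.07; NCED3 and NCED5 make the precursor of abscisic acid, JAZ1 represses jasmonate signalling and AtATG18a takes part in autophagy. The list overlaps with those for tryptophan, ethylene and jasmonate, so its count is not separate from theirs. Nor does the count take account of whether WRKY33 is reported to raise or to lower a target, so a lower member is not thereby a lost activation.

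**Figure D3:**
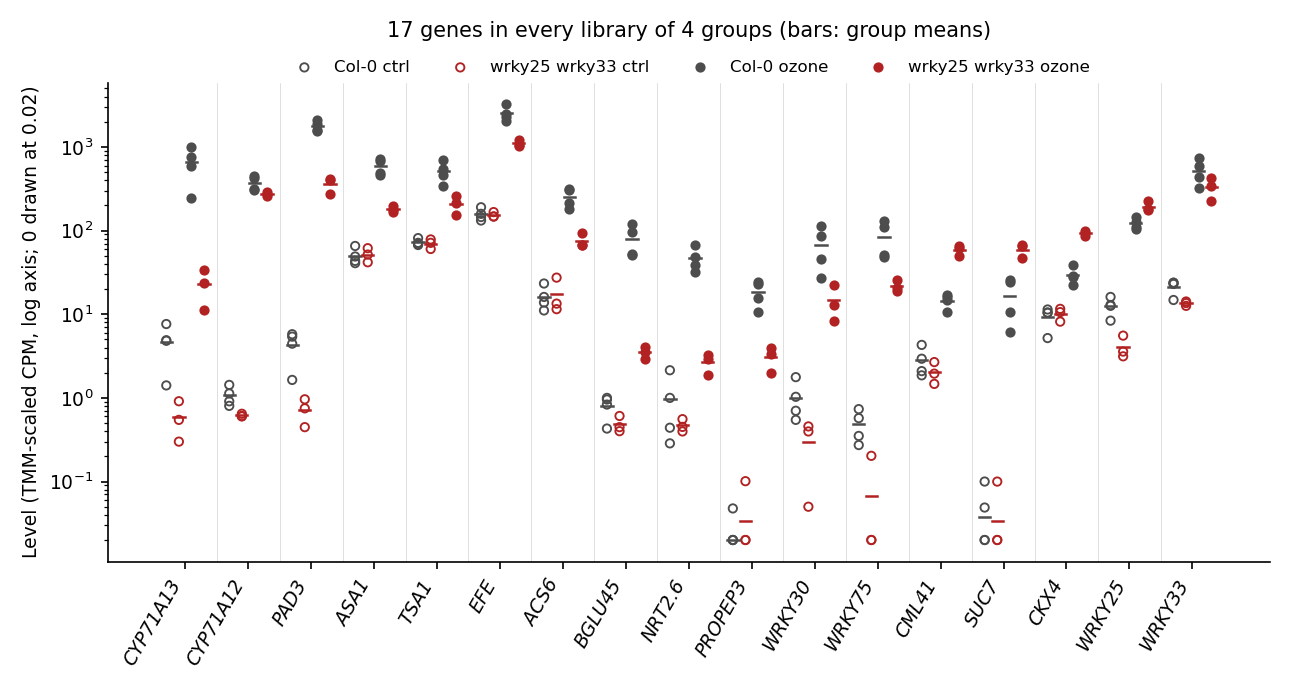
Level in counts-per-million (log axis, values of 0 drawn near its lower end) of 17 genes in each library of Col-0 and wrky25 wrky33, open circles without ozone and filled circles with it, with group means as bars. The filled mutant-labelled points of CYP71A13, PAD3, ASA1 and PROPEP3 lie below all filled Col-0 points, and those of WRKY33 overlap with Col-0 while those of CML41 and CKX4 lie above the filled Col-0 points.

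The W-box core was looked for in the 250 bases before the annotated start of each gene (RefSeq annotation of TAIR10.1), as TTGAC on either strand, that is TTGAC or GTCAA as written. It was in 426 of the 753 lower genes (56.6%), in 134 of the 311 higher genes (43.1%) and in 8934 of 19858 tested genes with a promoter sequence (45.0%). Of the 110 genes at least 4-fold lower, 78 had it (70.9%), and 35.5% of them had 2 or more matches, against 24.0% of all lower genes, 12.5% of the higher and 14.4% of all genes. The genes that ozone raised in wrky75 had the core in 51.7% of cases; among these it was in 58.1% of those lower in the double mutant and in 50.9% of the others. In 1000 bases nearly every promoter had a match, 93.0% of lower, 87.8% of higher and 88.1% of all genes. A match of so short a word is a description of the sequence and says nothing of binding, and no match says only that the letters are not in the window. Promoters of 7 genes are shown because these genes were among the lower ones described here and hold from 0 to 4 matches, written 5′ to 3′ on the gene's own strand and ending at the base before the start, with TTGAC and GTCAA in capitals.
CYP71A13 (chr2:13111989-13112238, minus strand): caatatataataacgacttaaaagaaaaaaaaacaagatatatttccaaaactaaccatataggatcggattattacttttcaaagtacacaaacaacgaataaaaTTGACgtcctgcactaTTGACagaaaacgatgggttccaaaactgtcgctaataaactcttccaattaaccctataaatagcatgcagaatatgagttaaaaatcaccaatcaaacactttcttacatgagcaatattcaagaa
CYP82C2 (chr4:15462100-15462349, plus strand): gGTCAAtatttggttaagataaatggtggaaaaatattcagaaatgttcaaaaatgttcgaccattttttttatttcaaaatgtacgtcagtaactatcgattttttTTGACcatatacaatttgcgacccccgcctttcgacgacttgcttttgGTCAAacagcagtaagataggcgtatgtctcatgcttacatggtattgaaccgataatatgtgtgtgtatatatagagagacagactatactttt
BGLU45 (chr1:22829671-22829920, plus strand): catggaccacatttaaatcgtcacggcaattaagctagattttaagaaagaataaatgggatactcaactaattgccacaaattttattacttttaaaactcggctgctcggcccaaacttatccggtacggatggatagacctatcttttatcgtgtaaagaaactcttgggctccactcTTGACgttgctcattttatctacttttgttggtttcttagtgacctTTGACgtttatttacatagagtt
PROPEP3 (chr5:25939312-25939561, plus strand): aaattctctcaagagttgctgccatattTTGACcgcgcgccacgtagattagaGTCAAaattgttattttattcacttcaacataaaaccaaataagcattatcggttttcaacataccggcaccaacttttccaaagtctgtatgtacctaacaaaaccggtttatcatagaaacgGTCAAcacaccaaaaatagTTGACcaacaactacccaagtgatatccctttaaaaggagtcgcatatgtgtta
WRKY30 (chr5:8154711-8154960, minus strand): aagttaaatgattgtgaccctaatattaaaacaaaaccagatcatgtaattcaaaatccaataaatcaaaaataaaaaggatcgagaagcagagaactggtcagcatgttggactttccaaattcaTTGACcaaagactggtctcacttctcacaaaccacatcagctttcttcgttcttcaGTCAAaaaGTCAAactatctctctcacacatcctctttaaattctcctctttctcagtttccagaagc
PAD3 (chr3:9887667-9887916, plus strand): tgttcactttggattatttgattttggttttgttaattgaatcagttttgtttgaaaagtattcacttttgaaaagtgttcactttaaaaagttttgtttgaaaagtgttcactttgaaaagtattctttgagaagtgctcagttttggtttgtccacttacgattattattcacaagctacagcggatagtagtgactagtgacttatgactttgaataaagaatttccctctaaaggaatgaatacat
ACS2 (chr1:175456-175705, plus strand): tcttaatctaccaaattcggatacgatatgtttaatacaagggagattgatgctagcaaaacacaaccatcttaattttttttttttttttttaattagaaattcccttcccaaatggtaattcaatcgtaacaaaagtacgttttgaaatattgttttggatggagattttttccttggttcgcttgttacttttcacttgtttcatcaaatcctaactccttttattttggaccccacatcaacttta
CYP71A13 has 2 matches, 144 and 128 bases before the start, and PROPEP3 has 4, the nearest of them 54 bases before it. PAD3 and ACS2, both lower and both reported as targets, have 0 matches in this window.

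The genes with the largest decreases were of several kinds. AT3G25490, a protein kinase family member, had 565 counts over the Col-0 libraries and 2 over the mutant-labelled ones, a ratio of 224 (exact 95% interval 61.7 to 1850, counting error only). GLIP1, a secreted GDSL lipase that acts in ethylene-dependent resistance to fungi, was at 5.14, 7.62, 8.96 and 2.92 CPM in Col-0 and 0, 0 and 0.225 CPM in the double mutant, with a log2 difference of -6.22 ± 0.66 (SE; adjusted p = 1.36e-05, edgeR). TPX2, a thioredoxin-dependent peroxidase of the type II peroxiredoxins, was at 6.11, 10.6, 10.7 and 4.91 CPM in Col-0 and 0.0948, 0.139 and 0.225 CPM in the double mutant, with a log2 difference of -5.67 ± 0.54 (SE; adjusted p = 3.81e-06, edgeR). In all of them the mutant-labelled libraries were close to 0. BGLU45, a beta-glucosidase able to cleave monolignol glucosides, was at 51.9, 121, 95.4 and 51.4 CPM in Col-0 and 2.89, 4.11 and 3.51 CPM in the double mutant, with a log2 difference of -4.51 ± 0.31 (SE; adjusted p = 5.85e-08, edgeR). NRT2.6, a member of the nitrate transporter family, was at 32.4, 66.7, 38.8 and 48.0 CPM in Col-0 and 1.90, 3.28 and 2.93 CPM in the double mutant, with a log2 difference of -4.10 ± 0.39 (SE; adjusted p = 3.77e-06, edgeR). AT1G26390, a berberine-bridge oxidase gene close to AT1G26380, was lower, 61.7 ± 37.3 CPM (SD, n = 4) in Col-0 and 1.98 ± 0.81 CPM (SD, n = 3) in the double mutant, with a log2 difference of -4.96 ± 0.62 (SE; adjusted p = 6.65e-05, edgeR). CYP82C3, next to CYP82C2 and CYP82C4, was lower, 45.0 ± 11.9 CPM (SD, n = 4) in Col-0 and 2.51 ± 0.694 CPM (SD, n = 3) in the double mutant, with a log2 difference of -4.17 ± 0.34 (SE; adjusted p = 1.71e-06, edgeR). The rest of the 12 were the peroxidase AT5G19880 (-5.0), CYP715A1 (-5.61), AT1G13520 of unknown function (-4.25) and NHL25 of the NDR1/HIN1-like family (-4.24), given as log2 differences. CYP71A13 completed the 12, and all 12 kept their call in each of the 7 omissions of 1 ozone library. CYP82C2, CYP82C3 and CYP82C4, and CYP71A12 and CYP71A13, are similar in sequence, and reads could be divided between the copies.

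Genes higher in the double mutant were fewer and changed less. CML41, a calmodulin-like protein described at plasmodesmata in immunity, was at 16, 16.8, 14.7 and 10.6 CPM in Col-0 and 61.6, 65.2 and 49.9 CPM in the double mutant. All mutant-labelled libraries exceeded all Col-0 libraries, with a log2 difference of 2.02 ± 0.30 (SE; adjusted p = 0.000382, edgeR). CKX4, an oxidase that degrades cytokinin, was at 38.9, 27.5, 28.3 and 22.5 CPM in Col-0 and 97.9, 86.7 and 92.6 CPM in the double mutant, with a log2 difference of 1.66 ± 0.21 (SE; adjusted p = 7.34e-05, edgeR). SUC7, a sucrose carrier gene with near-identical relatives and therefore uncertain, was at 10.5, 25.4, 24.3 and 6.16 CPM in Col-0 and 46.5, 66.4 and 65 CPM in the double mutant, with a log2 difference of 1.84 ± 0.37 (SE; adjusted p = 0.00442, edgeR). Both were again higher in every mutant-labelled library. BBX17, a B-box zinc finger protein, was higher at a log2 difference of 2.05 ± 0.38, AT1G27020 at 1.85 ± 0.37, the thaumatin family gene AT1G19320 at 1.76 ± 0.30 and AT2G41730 at 1.83 ± 0.18. AT1G15010, AT3G09450 and AT5G35935 were higher at a log2 difference of 2.44, 1.90 and 2.24, the last also without ozone. Mean levels of AT5G35935 under ozone were 3.69 CPM in Col-0 (1.78 to 6.75 CPM), 17.5 CPM in the double mutant and 0.0321 CPM in wrky75. In wrky75 without ozone the mean was 0.099 CPM, so the levels of this gene were apart in all 3 genotypes in both treatments. The cause was not tested. BG3, a beta-1,3-glucanase of the pathogenesis-related PR2 class, had a log2 difference of 1.99 ± 0.55 (SE; adjusted p = 0.0406, edgeR), and its call was lost in all 7 omissions of 1 ozone library. AT1G15010 was lost without mutant-labelled replicate 2 (adjusted p = 0.0701, edgeR).

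Transcripts for both dedicated steps of ethylene synthesis were lower. ACS2, a 1-aminocyclopropane-1-carboxylate (ACC) synthase, was at 7.29, 9.52, 14.7 and 2.56 CPM in Col-0 and 2.70, 1.75 and 2.66 CPM in the double mutant, so that Col-0 replicate 4 lay within the range of the double mutant, with a log2 difference of -1.85 ± 0.42 (SE; adjusted p = 0.0123, edgeR). ACS6, the ACC synthase that MAP kinases stabilise, was at 310.4, 213, 181 and 303 CPM in Col-0 and 94.1, 67.0 and 66.9 CPM in the double mutant, with a log2 difference of -1.73 ± 0.49 (SE; adjusted p = 0.0442, edgeR). It was lower in all mutant-labelled libraries, but its call was lost on omission of any 1 of Col-0 replicates 1, 2 and 4 and mutant-labelled replicates 1, 2 and 3 (adjusted p up to 0.185, edgeR). The call of ACS2 was lost without mutant-labelled replicates 2 or 3 (adjusted p up to 0.0797, edgeR). ACC oxidase EFE (ACO4), which releases ethylene, was at 2038, 2506, 2285 and 3229 CPM in Col-0 and 1058, 1037 and 1204 CPM in the double mutant. It was lower in each mutant-labelled library with a log2 difference of -1.19 ± 0.18 (SE; adjusted p = 0.000457, edgeR), and the difference from the comparison without ozone was -1.17 ± 0.25 (SE; adjusted p = 0.0319, edgeR).

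Ethylene response factors were lower too, ERF5 at a log2 difference of -1.94 ± 0.52, ERF6 at -1.72 ± 0.41, ORA59 at -1.24 ± 0.28, ERF1 at -0.62 ± 0.15 and the repressor ERF4 at -0.53 ± 0.13 (adjusted p = 0.0344, 0.0175, 0.0121, 0.0156 and 0.021, edgeR). ORA59 and ERF1 activate the defensin PDF1.2 in response to ethylene and jasmonate. In the list, 8 of 31 ethylene genes were lower (25.8%) and 0 higher, while the median of the list was -0.02. The 23 genes not called included ACS11 at a log2 difference of 2.21 ± 0.65 and ERF2 at -1.24 ± 0.37, and values spanned -1.94 to 2.21. With the block ACS11 and ERF2 passed (adjusted p = 0.0495 and 0.0197 in edgeR; alternatives spanned 0.0194 to 0.202 and 0.000137 to 0.202), and the list had 10 lower genes and 1 higher. ERF5 lost its call in 6, ERF6 in 3, ERF1 and ERF4 in 2 and ORA59 in 1 of the 7 omissions of 1 ozone library.

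Immunity to pathogen patterns and to the plant's own elicitor peptides contributed 7 lower genes of 34 (20.6%), 0 higher, and a median of -0.18. Besides PROPEP3, the precursors PROPEP1 and PROPEP2 were lower at a log2 difference of -1.02 ± 0.27 and -1.44 ± 0.36, and both receptors of these peptides, PEPR1 and PEPR2, at -0.61 ± 0.11 and -1.21 ± 0.22 (adjusted p = 0.0327, 0.0277, 0.00212 and 0.0018, edgeR). Precursors and receptors of the peptides were thus both among the 7 lower genes, and a joint change of the pathway was not tested. PUB23, a ubiquitin ligase that dampens pattern-triggered immunity, was at 104, 95.0, 65.9 and 139.9 CPM in Col-0 and 24.5, 17.8 and 18.1 CPM in the double mutant, with a log2 difference of -2.33 ± 0.32 (SE; adjusted p = 0.000175, edgeR). YLS9 (NHL10), a marker of immune signalling, was lower at a log2 difference of -1.11 ± 0.29. CPK5 and BIK1, kinases of the same pathway, were not called (log2 difference -0.35 ± 0.10 and -0.58 ± 0.17). With the block CPK5 and BIK1 passed (adjusted p = 0.0421 and 0.00828 in edgeR; alternatives spanned 0.0114 to 0.25 and 0.0014 to 0.268), and the list had 10 lower genes and 4 higher. The calls of PROPEP1, PROPEP2 and YLS9 were lost in 6, 4 and 5 of the 7 omissions.

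Other WRKY factors moved in both directions. WRKY30, which ozone and other oxidants raise, was at 112, 45.3, 26.9 and 85.6 CPM in Col-0 and 22.6, 12.9 and 8.20 CPM in the double mutant, with a log2 difference of -2.21 ± 0.57 (SE; adjusted p = 0.0258, edgeR); its call was lost on omission of any 1 of Col-0 replicate 1 and mutant-labelled replicates 2 and 3 (adjusted p up to 0.154, edgeR). WRKY75, a factor of senescence and phosphate starvation and the gene mutated in the third genotype of the series, was at 48.0, 128, 109 and 50.4 CPM in Col-0 and 18.8, 25.4 and 20.8 CPM in the double mutant. It was lower in all mutant-labelled libraries, with a log2 difference of -1.96 ± 0.36 (SE; adjusted p = 0.00225, edgeR). WRKY55, WRKY41, WRKY6 and WRKY15 were lower at a log2 difference of -2.14 ± 0.42, -1.27 ± 0.19, -0.94 ± 0.21 and -0.65 ± 0.17, and WRKY3 was higher at 0.80 ± 0.14 (adjusted p = 0.00386, 0.000323, 0.0103, 0.0323 and 0.00139, edgeR). These were 6 lower and 1 higher of 33, with a median of -0.05; WRKY7 and WRKY45 did not pass (log2 difference -0.44 ± 0.13 and -0.96 ± 0.29). With the block WRKY7 and WRKY45 passed (adjusted p = 0.0335 and 0.00357 in edgeR; alternatives spanned 0.0121 to 0.242 and 0.000199 to 0.228), and the list had 9 lower genes and 1 higher. WRKY15 and WRKY6 lost the call in 4 and 1 of the 7 omissions of 1 ozone library (adjusted p up to 0.185 and 0.0819, edgeR).

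Glutathione S-transferases conjugate glutathione to reactive compounds, and 5 of 25 (20%) were lower and 0 higher. Their median was -0.49 under ozone and -0.47 without it. GSTU10 was at 15.6, 26.6, 29.9 and 19.0 CPM in Col-0 and 3.65, 3.42 and 4.82 CPM in the double mutant, with a log2 difference of -2.52 ± 0.21 (SE; adjusted p = 5.63e-07, edgeR). It was lower in all mutant-labelled libraries, as were GSTU3 (log2 difference -2.86 ± 0.43), GSTU11 (-2.61 ± 0.40), GSTU12 (-2.45 ± 0.36) and GSTF3 (-1.09 ± 0.21), with adjusted p-values of 0.000409, 0.000488, 0.000922 and 0.00335 (edgeR). GSTF10 and GSTU22 were not called, at a log2 difference of 0.35 ± 0.10 and 1.58 ± 0.48. With the block GSTF10 passed (adjusted p = 0.0127 in edgeR; alternatives spanned 0.0094 to 0.285). Members of the family lie in clusters of similar copies and may share reads. Of 28 cysteine-rich receptor-like kinases, 4 were lower (14.3%), CRK20 at a log2 difference of -1.96 ± 0.22, CRK22 at -1.15 ± 0.15, CRK8 at -0.94 ± 0.23 and CRK28 at -0.56 ± 0.13, and CRK42 was higher at 0.88 ± 0.21. The median of these kinases was 0.09. CRK7 and CRK23 did not pass (log2 difference -1.60 ± 0.46 and -1.18 ± 0.36). With the block CRK7 and CRK23 passed (adjusted p = 0.0035 and 0.0213 in edgeR; alternatives spanned 0.000467 to 0.19 and 0.00115 to 0.286), and 6 of the kinases were lower and 3 higher. The calls of CRK8, CRK42 and CRK28 were lost in 4, 3 and 2 of the 7 omissions.

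Calls in the hormone lists outside ethylene stand beside 3.77% lower and 1.56% higher over all genes tested. ALD1, the aminotransferase of pipecolic acid synthesis in systemic immunity, was the 1 lower gene of 26 for salicylic and pipecolic acid (3.85%). It was at 56.3, 126, 126 and 56.4 CPM in Col-0 and 16.9, 13.2 and 19.0 CPM in the double mutant, with a log2 difference of -2.48 ± 0.62 (SE; adjusted p = 0.0229, edgeR). FMO1, which hydroxylates pipecolic acid, and EDS1 were not called, at a log2 difference of -1.49 ± 0.60 and 0.41 ± 0.20. With the block FMO1 passed (adjusted p = 0.0115 in edgeR; alternatives spanned 0.00783 to 0.5). For ALD1, its call was lost on omission of any 1 of Col-0 replicates 2 and 3 and mutant-labelled replicates 1, 2 and 3 (adjusted p up to 0.117, edgeR). Of 29 jasmonate genes 2 were lower (6.9%), the repressor JAZ5 (log2 difference -1.14 ± 0.31) and the acyl-CoA oxidase ACX1 (-0.92 ± 0.21). JAR1, which joins jasmonate to isoleucine, was the 1 higher gene (3.45%), at 0.50 ± 0.11. JAZ6 and JAZ10 did not pass (log2 difference -0.72 ± 0.21 and -0.85 ± 0.28). With the block JAZ6 and JAZ10 passed (adjusted p = 0.00694 and 0.00445 in edgeR; alternatives spanned 0.00175 to 0.193 and 0.00168 to 0.317). Of 29 abscisic acid genes 2 were lower (6.9%), the receptor PYL6 (log2 difference -1.69 ± 0.41) and the phosphatase ABI2 (-0.51 ± 0.14). HAB1 and PYL4 were not called, at 0.53 ± 0.22 and -0.64 ± 0.26. With the block HAB1 passed (adjusted p = 0.0144 in edgeR; alternatives spanned 0.0144 to 0.503). Of 22 auxin and growth genes only PIL6 (PIF5), a phytochrome-interacting factor, passed (4.55% higher, log2 difference 0.48 ± 0.13), with libraries that overlapped. The block called 4 auxin and growth genes higher and 0 lower, and 4 abscisic acid genes higher and 2 lower. Its shares over all genes tested were 5.43% higher and 6.57% lower. The calls of JAZ5, ACX1, JAR1, PYL6, ABI2 and PIL6 were lost in 5, 3, 1, 3, 6 and 5 of the 7 omissions.

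Calls in the oxidant-related lists also stand beside 3.77% lower and 1.56% higher over all genes tested. Of these lists, the 19 antioxidant enzymes had 2 lower genes (10.5%), VTC5 of ascorbate synthesis (log2 difference -0.72 ± 0.18) and GSH2, glutathione synthetase (-0.42 ± 0.11). GSH1 and CSD1 were at 0.19 ± 0.09 and -0.21 ± 0.15. VTC5 and GSH2 lost the call in 5 and 5 of the 7 omissions of 1 ozone library (adjusted p up to 0.108 and 0.157, edgeR). Of 23 regulators responsive to reactive oxygen species 2 were lower (8.7%), the kinase AGC2-1 (OXI1, log2 difference -0.67 ± 0.16) and the NADPH oxidase RBOH F (-0.46 ± 0.10). AGC2-1 and RBOH F lost the call in 3 and 2 of the 7 omissions of 1 ozone library (adjusted p up to 0.12 and 0.0704, edgeR). ZAT11 and CML38 were not called, at a log2 difference of -1.29 ± 0.41 and -1.05 ± 0.33. With the block ZAT11 and CML38 passed (adjusted p = 0.00656 and 0.0301 in edgeR; alternatives spanned 0.000357 to 0.36 and 0.000509 to 0.359). The mitochondrial retrograde list of 11 tested genes was divided, with 2 higher (18.2%) and 1 lower (9.09%). UGT74E2, a glucosyltransferase of indole-3-butyric acid, was higher at a log2 difference of 1.30 ± 0.20 and the sulfotransferase SOT12 at 0.84 ± 0.12. NAC053 was lower at -0.96 ± 0.19, and AOX1D and NDA2 did not pass (-1.34 ± 0.40 and -0.66 ± 0.21). With the block AOX1D and NDA2 passed (adjusted p = 0.000595 and 0.0058 in edgeR; alternatives spanned 0.000595 to 0.215 and 0.00152 to 0.214). Heat shock genes had a median of 0.31 and 2 higher of 21 (9.52%), the small heat shock proteins HSP17.6II (log2 difference 1.18 ± 0.33) and AT5G51440 (0.94 ± 0.21). HSP17.6II and AT5G51440 lost the call in 7 and 2 of the 7 omissions of 1 ozone library (adjusted p up to 0.219 and 0.0581, edgeR). The block called 7 heat shock genes higher and 0 lower, beside 5.43% higher and 6.57% lower over all genes tested. HSP17.6A and HSP70 were not called, at a log2 difference of 0.94 ± 0.35 and 0.60 ± 0.22. With the block HSP17.6A and HSP70 passed (adjusted p = 0.00888 and 0.0111 in edgeR; alternatives spanned 0.0033 to 0.686 and 0.0111 to 0.497).

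NAC042 (JUB1), a NAC factor that delays senescence and responds to hydrogen peroxide, was the 1 called gene of 19 for senescence (5.26%). Over all genes tested 3.77% were lower and 1.56% higher. NAC042 was at 32.1, 65.7, 70.1 and 27.7 CPM in Col-0 and 7.39, 6.10 and 6.98 CPM in the double mutant. It was lower in every mutant-labelled library with a log2 difference of -2.84 ± 0.42 (SE; adjusted p = 0.000301, edgeR), and SAG13 did not pass, with a log2 difference of -2.03 ± 0.58 (SE; adjusted p = 0.051, edgeR). With the block SAG13 passed (adjusted p = 0.021 in edgeR; alternatives spanned 4.45e-05 to 0.192). PAL2, phenylalanine ammonia-lyase, was the 1 lower gene of 23 for phenylpropanoids (4.35%, log2 difference -0.44 ± 0.12), and 4CL1 was at -0.45 ± 0.13. The shares of the senescence and phenylpropanoid lists were thus close to that over all genes. With the block 4CL1 passed (adjusted p = 0.0301 in edgeR; alternatives spanned 0.00472 to 0.262). PAL2 and MSS1 lost the call in 6 and 6 of the 7 omissions of 1 ozone library (adjusted p up to 0.257 and 0.179, edgeR). PRR9 was the 1 higher gene of 10 for the circadian clock (log2 difference 0.84 ± 0.16). Among transporters NRT2.6 and the hexose carrier MSS1 (STP13; log2 difference -0.90 ± 0.25) were lower of 20, and SWEET11 and SWEET12 were at 0.54 ± 0.17 and 0.95 ± 0.29. With the block SWEET11 and SWEET12 passed (adjusted p = 0.00337 and 0.000143 in edgeR; alternatives spanned 0.00337 to 0.325 and 0.000114 to 0.278). The block called 3 clock genes higher, and 3 transporters higher and 3 lower. No gene passed among 31 for photosynthesis and chlorophyll, 20 for the cell wall, 19 for autophagy and cell death, 15 for the unfolded protein response, 13 for phosphate starvation, 7 flowering repressors and 9 reference genes. With the block these lists held 1 higher photosynthesis gene, 1 higher autophagy gene, and 1 higher and 1 lower phosphate gene. Over all genes tested the block called 5.43% higher and 6.57% lower, the shares to set beside its counts in these lists. The block called 5 of the regulators lower and 1 higher, 5 of the mitochondrial genes lower and 3 higher, 4 of jasmonate lower and 1 higher, and 3 of senescence lower and 2 higher. It called 2 of salicylic and pipecolic acid and 2 of phenylpropanoids lower, and 0 of either higher. Of the 61 genes named without a call, 33 passed with the block, and 0 of the 95 called ones failed with it. Uncalled list members were taken by lowest unadjusted p, nearest to the threshold, and the block called 12.0% of all genes tested. It also called 1063 of the 1064 genes of the main fit, so neither count is a result about the named genes. Without Col-0 ozone replicate 4 the lists for tryptophan, ethylene, immunity to patterns, other WRKY factors, glutathione S-transferases and reported targets had 12, 6, 7, 6, 5 and 6 lower genes, and that for auxin and growth 3 higher. The photosynthesis genes summed to 43769 to 81487 CPM in Col-0 and 56021 to 75166 CPM in the double mutant.

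**Figure D4:**
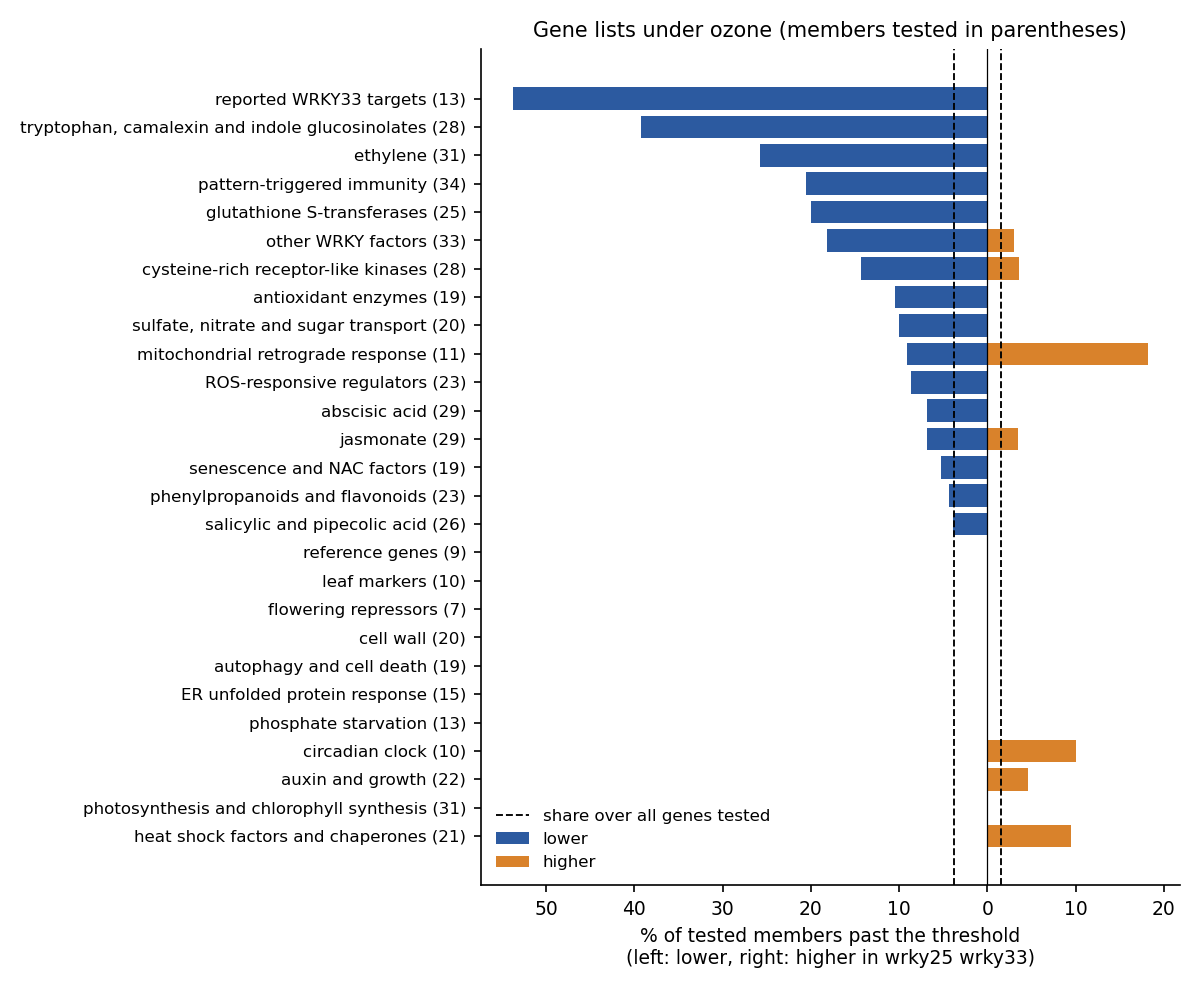
Percent of the tested members of each list that were lower (left) or higher (right) in the double mutant under ozone, with the number tested in parentheses and dashed lines at the shares over all genes tested (3.77% lower, 1.56% higher). The longest bars are the 53.8% lower of reported WRKY33 targets and the 39.3% lower of tryptophan and camalexin genes, and photosynthesis, cell wall and leaf markers have none.

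The comparison was repeated in the control libraries, where a gene without a call is not thereby shown to depend on ozone. Without ozone 5 genes were called (0.0251%), and 683 (3.42%) had an unadjusted p below 0.05; DESeq2 called 19. The 3 higher genes (0.015%) were AT2G38480, ATCHX13 and AT5G35935, and the 2 lower ones (0.01%) AT1G74290, a hydrolase, and SADHU3-2, a transposable element gene. Genes that were lower under ozone had a median log2 difference of -0.07 in the control libraries, where 493 of the 753 (65.5%) had a value below 0 against 48.5% of all genes. Of the 753, 76 were at -1 or below, against 351 of all 19954 genes. Genes that were higher under ozone had a control median of -0.02. Of these 311, 141 (45.3%) were above 0 and 169 (54.3%) below, against 51.3% and 48.5% of all genes. List medians without ozone were -0.47 for glutathione S-transferases, -0.53 for cysteine-rich receptor-like kinases, -0.32 for other WRKY factors and -0.31 for immunity to patterns. They were -0.04 for tryptophan and camalexin, 0.02 for ethylene and -0.19 for reported targets, against 0.005 for all genes. No member of these lists was called without ozone. CYP71A13 and PAD3 were low without ozone in both groups, CYP71A13 at 4.82, 7.64, 4.89 and 1.41 CPM in Col-0 and 0.546, 0.3 and 0.912 CPM in the double mutant, with log2 differences of -2.99 ± 0.79 (adjusted p = 0.851) and -2.57 ± 0.56 (adjusted p = 0.282) that did not pass (edgeR).

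The difference between the comparisons with and without ozone, tested in the same fit, passed in 191 genes (0.957%), 53 above 0 (0.266%) and 138 below (0.692%). It uses the same ozone libraries as the comparison above, so its values stand beside that comparison and do not add to it. It passed in 138 of the 753 genes lower under ozone (18.3%) and in 48 of the 311 higher ones (15.4%). For PAD3 and CYP71A13 it did not pass, at 0.28 ± 0.68 and -1.86 ± 1.05 (SE, adjusted p = 0.982 and 0.699, edgeR). The gene with the lowest p was AT4G30910, a leucine aminopeptidase family member, at 77.6, 85.0, 81.5 and 81.4 CPM in Col-0 and 19.5, 18.5 and 19.4 CPM in the double mutant. These libraries varied little within a group, with a log2 difference of -2.09 ± 0.10 (SE; adjusted p = 9.06e-10, edgeR) under ozone and -2.13 ± 0.14 (SE; adjusted p = 1.51e-07, edgeR) for the difference; its control means were 10.7 and 11 CPM. CYP71B6, a P450 that acts on indole-3-acetonitrile, had -2.05 ± 0.18 (SE; adjusted p = 1.37e-05, edgeR), ALDH2C4, an aldehyde dehydrogenase of ferulic and sinapic acid synthesis, -1.58 ± 0.16 (SE; adjusted p = 4.8e-05, edgeR), and AT1G16520 -2.04 ± 0.21 (SE; adjusted p = 4.8e-05, edgeR). PLP6, a patatin-like protein, and FAS4, an RNA helicase, had -1.52 ± 0.16 (SE; adjusted p = 4.8e-05, edgeR) and -1.47 ± 0.15 (SE; adjusted p = 4.8e-05, edgeR). With the block, 618 genes passed this test.

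The wrky75 libraries gave the ozone response in plants of neither compared group, although they entered the fit that estimated the spread. There 13594 genes (68.1%) responded to ozone, which raised 6390 (32.0%) and lowered 7204 (36.1%). Of the 753 genes lower in wrky25 wrky33 under ozone, ozone raised 676 in wrky75 (89.8%) and lowered 14 (1.86%), and the median response was 2.2 on the log2 scale against -0.11 for all genes. The 311 genes higher in the double mutant were divided, with 107 raised (34.4%) and 130 lowered (41.8%) by ozone in wrky75 and a median of -0.12. Levels differed as well: the median Col-0 ozone level was 36.4 CPM among the lower genes, 10.4 CPM among the higher and 14.2 CPM among all.

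**Figure D5:**
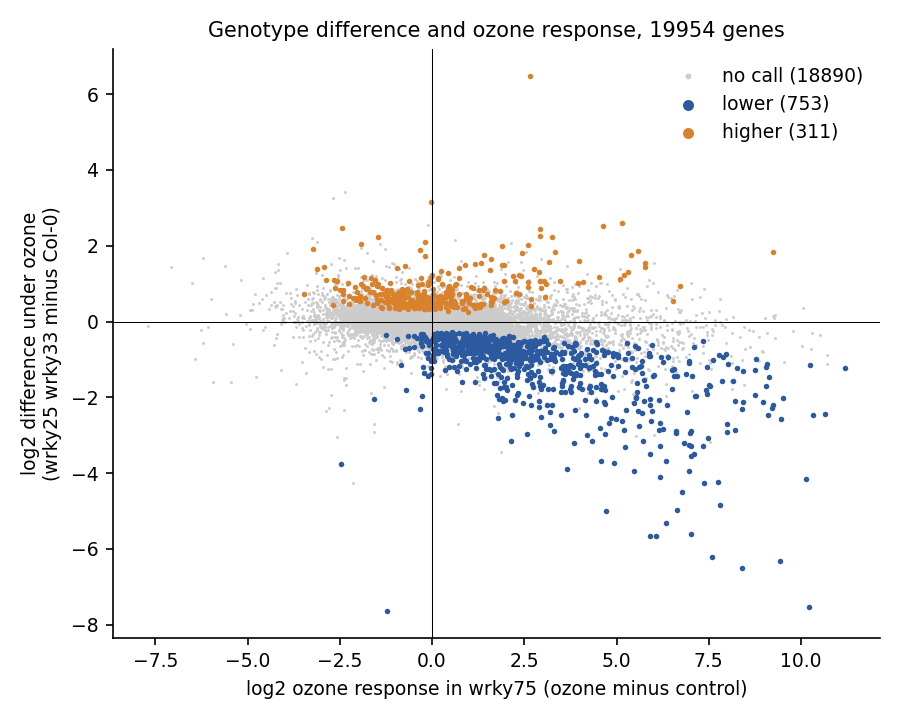
Log2 difference of the double mutant from Col-0 under ozone against the log2 ozone response in wrky75, for all 19954 genes tested, with the called genes coloured by direction. Of the lower genes, 89.8% were raised by ozone in wrky75, and the higher genes lie on both sides of 0.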

How the data were processed

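RNA of pooled whole rosettes was measured in 20 libraries of 6 groups, by the labels' genotype and treatment. The authors deposited raw counts of reads per gene as whole numbers. Per the submitters' processing notes the tools were HTSeq, SAMtools, TopHat2 and FastQC, and the build was TAIR10; their versions, settings and strand option are not given in the sources used. The TruSeq v2 kit, per the labels' protocols, does not mark strand, and reads of similar copies may be shared. Totals ran from 20486137 to 20771667 counts, so counting error was nearly equal between libraries. No pair of replicates agreed within sampling noise (chi-square per degree of freedom 6.47 or more). The labels call the pools biological replicates. The p-values set each difference against the spread between pools within groups, estimated over all 6 groups. The main fit did not use the replicate number.

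Counts of 33602 genes were analysed with edgeR 4.0.16 in R 4.3.3. filterByExpr on the 6 groups left 19954 genes, library sizes were scaled with TMM factors, and all 20 libraries entered 1 fit of group means. Contrasts were tested with the quasi-likelihood F-test, with Benjamini-Hochberg adjustment over all genes tested and a threshold of 0.05; a called gene is one that passed. SE is the log2 difference over the square root of F. Intervals of ratios of few counts are exact and cover counting error only. Same-numbered libraries of the groups deviated together from their group means under ozone (r = 0.559, 0.414 and 0.397 over the genes tested; -0.501 to 0.164 for different numbers), and the pairing comes from the labels' replicate numbers. Means were taken over 3 libraries, which pushes r for different numbers below 0. Between ozone and control libraries of the same number, r was 0.242, 0.233 and -0.00712 in Col-0. In the double mutant it was 0.0681, 0.0317 and -0.0807. The block of all 20 libraries takes 1 effect per number for both treatments. Alternatives were other scalings and filters, DESeq2 1.42.0, limma-voom 3.58.1, fewer libraries, the replicate block, and each library left out; 1 of the 27, the ozone libraries of 3 genotypes alone, was chosen after seeing the data. The edgeR steps were tested on simulated counts with known changes. Sequences, symbols and 1-based coordinates came from RefSeq TAIR10.1, where 32835 loci (97.72%) matched. Figures were drawn with matplotlib 3.10.9.

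Named genes were the mutated genes, the 12 largest changes each way among called genes whose libraries did not overlap and whose mean reached 5 CPM in either group, and the 6 genes with the lowest p for the difference between treatments. In each of 29 lists up to 4 called members were named by largest absolute log2 difference. Up to 2 uncalled members per list were named in order of unadjusted p, so they were the nearest to the threshold. Further called members of the lists for tryptophan, ethylene, WRKY factors, immunity, glutathione S-transferases and kinases, the uncalled reported targets, the neighbours and the genes called without ozone were added after their values were seen. The lists were written from general knowledge, some of it from the report of an earlier analysis, and members and lists were chosen with earlier results of these data known, so counts in them are descriptions.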

Additional observations from a re-analysis of the deposited data

Results flagged for a closer look

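For 23 named genes the difference between double mutant and Col-0 itself differed between ozone and control libraries in the test of that difference (edgeR, adjusted p below 0.05). The values, log2 difference with ozone minus that without, were positive for WRKY25 (2.27), CML41 (2.47), AT2G41730 (1.69), CKX4 (1.54), AT2G38480 (1.52), SOT12 (0.99) and WRKY3 (0.91). They were negative for TPX2 (-5.41), BGLU45 (-3.78), GSTU10 (-2.32), PUB23 (-2.18), AT4G30910 (-2.13), CYP71B6 (-2.05) and AT1G16520 (-2.04). Smaller negative values belonged to ASA1 (-1.76), ALDH2C4 (-1.58), PLP6 (-1.52), FAS4 (-1.47), TSA1 (-1.25), EFE (-1.17), ASB1 (-1.14), CRK22 (-1.13) and PEPR1 (-0.78).

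In groups of 4 libraries, 11 values lay far from the other 3 by Dixon's test at its 95% critical value, which chance passes in about 1 in 20 groups. With 156 named genes and Col-0 groups of 4 in both treatments, chance alone can give this many passes. Col-0 control replicate 4 was lowest for CKX4 (5.19 CPM), FAS4 (17.6 CPM) and EXP3 (21.3 CPM) and highest for PAL2 (178 CPM). Col-0 control replicate 1 was lowest for WRKY33 (14.8 CPM) and highest for SOT12 (17.7 CPM) and UBQ10 (1161 CPM). Col-0 control replicate 2 was highest for ASB1 (23.9 CPM) and lowest for ERF4 (18 CPM). Col-0 ozone replicate 4 was highest for AT3G09450 (4.28 CPM) and PHO1 (33.7 CPM).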

How the results depend on the processing

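The 95 called genes named in the report kept their direction under each of the 27 alternatives that tested them; CYP82C2 and CYP82C4 were tested in 26. With the 7 ozone libraries alone 707 genes were called, 162 of them higher. The replicate block gave 2394 (1084 higher, 1310 lower) in all 20 libraries, 3012 (1272 and 1740) in the 7 ozone libraries and 3012 (1270 and 1742) in the 6 that share numbers. Higher genes were 538 with total counts, where 581 were lower, and 558 without both Col-0 libraries numbered 4. Without ozone, DESeq2 called 19 genes; for the difference between treatments it called 372 and the block 618. Omitting 1 library gave 583 to 1188 genes under ozone, 117 to 448 higher and 466 to 879 lower, 1 to 7 without ozone and 76 to 226 for the difference. Of 95 named called genes, 59 kept their call in all 7 omissions of 1 ozone library. Of genes without a call, PYK10 changed sign at 0.01 (upper quartile), 0.07 (total counts), 0.01 (limma-voom), 0.11 and 0.01 (without Col-0 ozone replicates 1 and 2) and 0.01 and 0.09 (without mutant-labelled ozone replicates 1 and 2; range -0.15 to 0.11 over omissions), MYB60 at -0.08 (without mutant-labelled ozone replicate 2; range -0.08 to 0.30), NCED5 at 0.05 (without replicate 1; range -1.34 to 0.05) and AtATG18a at 0.01 (total counts). The cause of these changes was not tested. Counts per library were nearly equal, so depth differed little between them.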

Other observations

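Gene families were counted by words in their RefSeq product names, chosen after values were seen, as a description of the ozone comparison (edgeR calls). Over all genes tested, 3.77% were lower in the double mutant and 1.56% higher. Of 18 berberine-bridge oxidases 5 (27.8%) were lower and 0 higher. Of 13 pleiotropic drug resistance transporters 4 were lower (30.8%): ABCG43 at a log2 difference of -2.88, ABCG31 at -2.06, ABCG40, an importer of abscisic acid, at -0.99 and ABCG34, which exports camalexin, at -0.63. Class III peroxidases had 5 lower of 40 (12.5%) and 0 higher, and cytochromes P450 16 lower of 157 (10.2%) and 2 higher (1.27%).

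Among 13 wall-associated kinases and relatives, WAKL10 (-2.12), WAKL7 (-1.80) and WAK3 (-1.71) were lower (23.1%) and AT1G16260 (0.51) higher (7.69%). The median of the 13 was 0.10. Of 25 beta-glucosidases 4 were lower, BGLU45, BGLU27 (-2.87), BGLU46 (-1.78) and BGLU16 (-1.61), and BGLU40 (0.84) was higher, with a median of -0.01. Of 677 protein kinases 54 were lower (7.98%) and 10 higher (1.48%). Of 42 MATE transporters 6 were lower (14.3%) and 2 higher (4.76%). Of 70 MYB factors 2 were lower (2.86%) and 4 higher (5.71%). The higher ones were MYB16 (1.09), MYB94 (0.98) and MYB96 (0.72) of cuticle formation and MYB4 (0.53), a repressor of phenylpropanoid genes.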
